A study of Mus musculus with 2 samples.

Results

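The 10 genes described here serve solute uptake and protein endocytosis at the apical side of the kidney's proximal tubule and were followed through the cells of newborn mouse kidneys. They were chosen by function, not by a threshold on their values, and all 10 were found among the 32285 genes listed in the count matrices. Slc34a1 carries phosphate. Slc5a2, Slc5a1 and Slc2a2 carry glucose. Slc3a1, Slc7a9 and Slc6a19 carry amino acids, and Lrp2, Cubn and Dab2 serve endocytosis. The material is kidney at postnatal day 0 (P0), in 2 single-cell libraries of 1 genotype, written Rbpj c/+ ; Foxd1cre/+, which pairs a conditional allele of the Notch partner Rbpj with a Cre placed at Foxd1, a gene of stromal progenitors. The labels do not say whether the libraries came from separate animals. The p-values measure only how differences between classes varied from one library to the other, with 1 estimate of this spread shared by all classes. They do not measure the spread between animals. Both carry the same alleles, and the comparisons are between kinds of cells within this genotype.

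The proximal tubule takes back most of the phosphate, glucose, amino acids and small proteins that the glomerulus filters. Its sodium-coupled carriers sit in the brush border, a carpet of microvilli. Between the microvilli the large receptors megalin (Lrp2) and cubilin (Cubn) bind filtered proteins and vitamins and carry them inside with the help of clathrin adaptors such as Dab2. Tubule cells arise in the newborn kidney from nephron precursors, and the first segment of the mature tubule is known for Slc5a2 and the last for Slc5a1.

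The libraries held 200331687 unique molecular identifiers (UMIs, one per captured RNA molecule) in replicate 1 and 173166168 in replicate 2. A barcode counted as a cell if it held 3000 UMIs or more from 500 genes or more and its mitochondrial part did not pass 20%, which left 5284 and 4064 cells after removal of predicted doublets. The libraries shared 5 barcodes. Cells were assigned to 14 classes by markers that include none of the 10 genes, and 86.4% and 85.3% of cells received a class. Proximal tubule cells numbered 287 and 210, with medians of 35373 and 42558 UMIs. Proximal precursors, gated on Cdh6, Osr2, Jag1, Clec18a, Grid1 and Stxbp5l, numbered 347 and 208, with medians of 20825 and 32766 UMIs. All 10 tubule markers were counted in the tubule class of both libraries, with a summed level of 9143 and 8561 CPM (counts per 1000000 UMIs of the class), against 949 and 736 CPM in precursors. Markers of the precursors remained in tubule cells at 651 and 646 CPM, against 2661 and 2353 CPM in the precursors themselves. The 6 immune markers summed to 18.9 and 18.2 CPM in tubule cells. The erythroid class of replicate 1 was mixed. Its haemoglobin markers summed to 149621 CPM against 478361 CPM in replicate 2, and it held the tubule markers at a median of 10.1% of their level in tubule cells, against 2.55% in replicate 2. Comparisons with all other classes were therefore also made without the erythroid class.

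All 10 genes were higher in tubule cells than in precursors. They were also higher in each of these classes than in the mean of the 12 remaining classes. The tubule gate picks cells by other genes of the mature tubule, and the gate limits were chosen with the members' levels in view. The genes themselves were chosen with earlier results of these data known. Their direction in tubule cells is therefore no independent result. The UMIs of each class were added up within each library and tested with edgeR's quasi-likelihood test with Benjamini-Hochberg adjustment at 0.05, over 18451 genes outside the gate markers. Among all tested genes, 24.3% were called higher and 21.9% lower in tubule cells than in precursors, 32.8% were called higher in tubule cells than in the mean of the other classes, and 24.1% were called higher in precursors than in that mean. From precursors to tubule cells the median difference over the 10 genes was 2.89 on the log2 scale, and the median over all tested genes was -0.02. Under scaling by library size alone the median over all genes moved to -0.39, and the split of calls moved from 4488 higher and 4039 lower to 2528 higher and 6089 lower. All 10 genes stayed called higher in tubule cells under that scaling too. Mitochondrial UMIs made up 11.2% and 9.87% of the tubule sums and 4.91% and 4.56% of the precursor sums, and their part in the result was not tested.

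**Figure D1:**
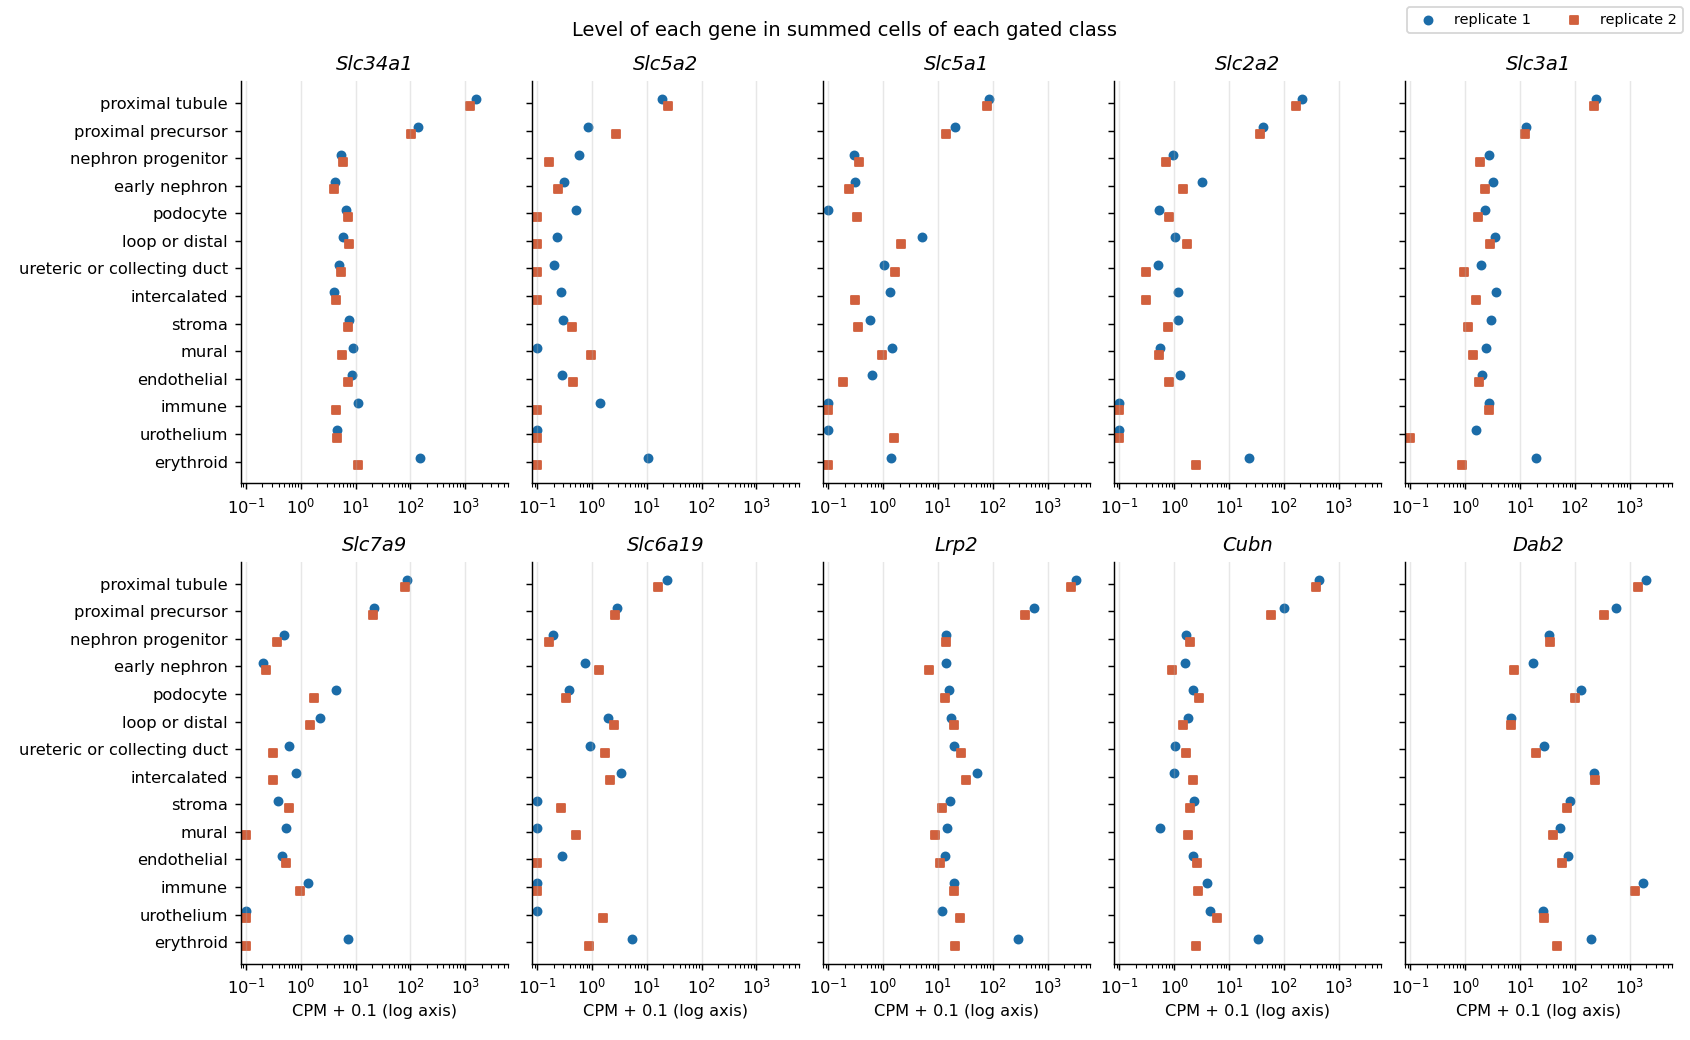
Level of each of the 10 genes in every class, in CPM plus 0.1 on a log axis. Circles are replicate 1, squares are replicate 2, and a sum with 0 counts stands at 0.1. Tubule cells are the highest class for all 10 genes and precursors come next for most of them, Dab2 is nearly as high in immune cells as in tubule cells, and the mixed erythroid class of replicate 1 stands apart from that of replicate 2.

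Slc34a1 (chr13:55398187-55415592, plus strand; positions here and below are whole genes in GRCm38) encodes the main sodium-phosphate cotransporter of the brush border. It stood at 1562 CPM in tubule cells of replicate 1 and 1208 CPM in replicate 2, and at 138 and 105 CPM in precursors. The groups did not overlap, but the share of all tested genes without overlap was not determined, here or for the genes below. The log2 difference was 3.90 (SE 0.35, adjusted p = 2.3e-08, edgeR). In the 11 other classes without the erythroid one, Slc34a1 lay between 3.88 and 10.9 CPM in replicate 1 and between 3.95 and 7.50 CPM in replicate 2. These levels were 0.248 to 0.697% and 0.327 to 0.621% of the tubule level. The 10 tubule gate markers, measured the same way, had medians of 0.292 to 0.803% and 0.454 to 0.673% across these classes, so Slc34a1 outside the proximal classes was no higher than the range of these markers. In replicate 1 the level estimated to come from free RNA was 13.1 CPM in immune and 10.5 CPM in mural cells, above the 10.9 and 8.97 CPM counted. It was below the counted level in the other classes and in replicate 2.

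The glucose carriers are split by place. Slc5a2 (SGLT2; chr7:128265657-128272430, plus strand) takes up most filtered glucose in the first segment, Slc5a1 (SGLT1; chr5:33104219-33162870, plus strand) takes up the rest further along, and Slc2a2 (GLUT2; chr3:28697903-28731359, plus strand) releases it on the basolateral side, so that it is the exception in an otherwise apical group. Slc5a2 was counted at 19.0 and 23.8 CPM in tubule cells and at 0.738 and 2.65 CPM in precursors, where the sums held only 9 and 27 counts. The classes did not overlap, and the log2 difference was 4.06 (SE 0.62, adjusted p = 2.3e-05, edgeR). Its size depended on the library: it was 3.45 without replicate 1 and 5.06 without replicate 2. Slc5a1 stood at 86.2 and 79.0 CPM in tubule cells and at 20.6 and 14.2 CPM in precursors, a log2 difference of 2.66 (SE 0.25, adjusted p = 5.5e-08). Slc2a2 stood at 210 and 166 CPM against 41.3 and 36.9 CPM, a log2 difference of 2.64 (SE 0.23, adjusted p = 3.9e-08). Both were thus present in precursors at about the same part of their tubule level: 23.9% and 17.9% for Slc5a1, and 19.6% and 22.3% for Slc2a2. Reads of Slc5a2 cannot be told apart from those of BC017158, which overlaps it on the opposite strand and had a mean of 12.5 CPM in tubule cells, unless the counting used the strand.

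Slc3a1 (chr17:85028376-85064236, plus strand) and Slc7a9 (chr7:35448796-35466036, plus strand) encode the heavy and the light subunit of 1 transporter, which takes up cystine and basic amino acids and fails in cystinuria. Their steps from precursor to tubule were unequal. Slc3a1 stood at 241 and 225 CPM in tubule cells and at 12.6 and 12.3 CPM in precursors, the largest of the 10 differences at 4.62 on the log2 scale (SE 0.25, adjusted p = 4.4e-11, edgeR). Slc7a9 stood at 88.4 and 79.3 CPM in tubule cells and at 21.5 and 20.3 CPM in precursors, a difference of 2.39 (SE 0.22, adjusted p = 5.1e-08). Of the UMIs of both genes together, Slc3a1 supplied 36.9% in precursors of replicate 1 (exact 95% interval 32.2 to 41.7, counting error only) and 37.8% in replicate 2 (32.5 to 43.2). In tubule cells its share was 73.1% (71.7 to 74.5) and 73.9% (72.4 to 75.5). The share was higher in tubule cells in each library, with intervals that did not meet. This is a ratio of UMI counts and says nothing of the ratio of the proteins, and the difference between the 2 fold changes was not tested. Slc6a19, a neutral amino acid carrier (chr13:73679745-73704865, minus strand), stood at 23.6 and 16.1 CPM in tubule cells and at 2.79 and 2.56 CPM in precursors, a log2 difference of 3.27 (SE 0.42, adjusted p = 2.8e-06). Slc3a1 overlaps Prepl on the opposite strand, which had a mean of 19.6 CPM in tubule cells and 23.5 CPM in precursors.

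The endocytic genes were well counted in precursors. Lrp2 lies at chr2:69424340-69586065, minus strand, Cubn at chr2:13276338-13491813, minus strand, and Dab2 at chr15:6299788-6440712, plus strand. Lrp2 stood at 3263 and 2647 CPM in tubule cells and at 572 and 384 CPM in precursors, a log2 difference of 3.03 (SE 0.41, adjusted p = 4.6e-06, edgeR). Cubn stood at 433 and 381 CPM against 100 and 59.4 CPM, a difference of 2.76 (SE 0.26, adjusted p = 4.2e-08). Megalin and cubilin act as a pair. Cubn supplied 14.9% (exact 95% interval 14.1 to 15.7, counting error only) and 13.4% (12.4 to 14.4) of the UMIs of both genes in precursors, and 11.7% (11.4 to 12.02) and 12.6% (12.2 to 12.95) in tubule cells. Its share was lower in tubule cells in both libraries, and the intervals met in replicate 2 and not in replicate 1. Dab2, the adaptor that links megalin to clathrin, stood at 1989 and 1428 CPM in tubule cells and at 568 and 343 CPM in precursors. Its log2 difference of 2.31 (SE 0.22, adjusted p = 5.9e-08) was the smallest of the 10. In each of these genes both tubule sums lay above both precursor sums, which was not set against the share over all tested genes. With the estimated free RNA subtracted from the sums the differences of Lrp2 and Dab2 hardly moved, to 2.98 and 2.27, but their adjusted p rose to 0.031 and 0.046.

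Expressed as a share of the tubule level, precursors held from 5.34% ± 0.177 (SD, n = 2) of Slc3a1 to 26.3% ± 3.21 of Dab2. Slc5a2 followed Slc3a1 with 7.52% ± 5.12, then Slc34a1 with 8.74% ± 0.127 and Slc6a19 with 13.8% ± 2.83. Lrp2 stood at 16.0% ± 2.15, Cubn at 19.4% ± 5.33, Slc5a1 and Slc2a2 both at 20.9% (SD 4.21 and 1.87) and Slc7a9 at 24.9% ± 0.863. Slc3a1 and Slc34a1 were below Lrp2, Slc2a2, Slc7a9 and Dab2 in both libraries, while Cubn, Slc5a1 and Slc2a2 overlapped with each other, and Lrp2 overlapped with Cubn. Slc5a2 varied too much, from 3.89% to 11.1%, to be placed against Slc3a1 and Slc34a1. For comparison, the 10 tubule gate markers stood in precursors at medians of 6.54% and 5.43% of their tubule level, but the gate itself kept their level in precursors low.

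**Figure D2:**
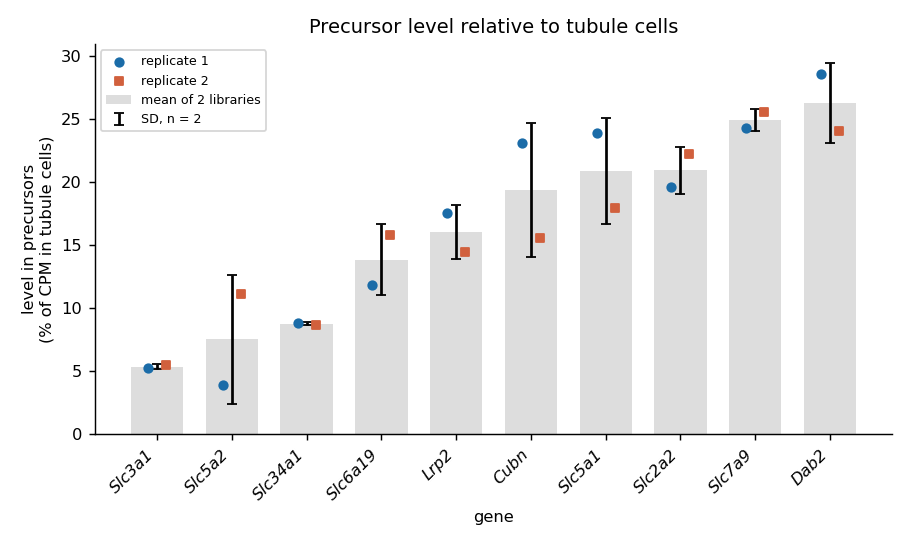
Level of each gene in proximal precursors as a percentage of its CPM in tubule cells. Bars are means of 2 libraries, error bars are SDs, circles are replicate 1 and squares are replicate 2. Slc3a1 is lowest at 5.34% and Dab2 highest at 26.3%, and the replicates of Slc5a2 lie farthest apart for their mean.

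Detection was followed cell by cell along the proximal cells, which were ordered by how many of the 10 tubule gate markers each one contained. Every precursor cell, tubule cell and cell between these gates was thinned to 3000 UMIs so that depth could not set the share. A gene's own level still sets it, so only the course of each gene is described. The same markers define the tubule gate, so the bins largely restate the gates. All 129 and 88 cells with 0 markers were gated as precursors. With 5 or more markers, 266 of 301 and 187 of 204 cells were gated as tubule cells. A rise over the bins is therefore no independent result. Among cells with 0 markers, 129 and 88 cells, Lrp2 was counted in 27.1% and 23.9%. With 1 to 2 markers the shares were 67.2% and 62.2%, with 3 to 4 they were 92.0% and 88.9%, and with 5 or more they were 98.7% and 97.5%. Dab2 followed the same course, from 30.2% and 23.9% through 61.3% and 51.1% and then 85.0% and 79.6% to 97.7% and 94.6%. Endothelial cells, whose levels of these genes lie far below those of tubule cells, gave 5.33% and 4.59% for Lrp2 and 19.3% and 16.2% for Dab2 at the same depth (medians before thinning 10642 and 13154 UMIs). Lrp2 in cells without any counted marker was thus above this share in both libraries. Dab2 was only a little above it, but endothelial cells are no floor for Dab2. They held it at 74.5 and 58.6 CPM, against 16.9 and 7.75 CPM in early nephron cells and 6.57 and 6.75 CPM in loop or distal cells. Podocytes and intercalated cells held more of it than endothelial cells.

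The phosphate and amino acid carriers began from low shares of cells, and only Slc34a1 among them is set beside endothelial cells here. Slc34a1 was counted in 2.33% and 5.68% of cells with 0 markers, against 2.37% and 3.23% of endothelial cells. Its share then went to 26.3% and 21.1%, to 61.0% and 50%, and to 93.4% and 85.3%. Slc3a1 was counted in 2.33% and 1.14% of cells with 0 markers and in 0.73% and 2.22% with 1 to 2, and then in 6.0% and 22.2% with 3 to 4 and in 44.5% and 39.2% with 5 or more. Slc7a9, its partner, was counted in 1.55% and 0.0% of cells with 0 markers, in 6.57% and 5.56% with 1 to 2, in 15.0% and 20.4% with 3 to 4 and in 24.6% and 24.0% with 5 or more. Cubn went from 5.43% and 4.55% to 64.1% and 63.7%, and Slc2a2 from 3.10% and 2.27% to 43.5% and 32.8%. Slc5a1 was counted in 20% and 16.7% of cells with 3 to 4 markers and in 16.6% and 16.2% with 5 or more. At 5000 UMIs its shares in these bins were 9.52% and 6.67%, and then 25.2% and 23.2%, so its course over the last step depended on the depth. Slc5a2 was counted in 0 of 366 and 0 of 232 cells with fewer than 5 markers (exact 95% upper limits 1.003% and 1.58%) and in 5.65% and 4.90% of the others. At 5000 UMIs it was counted in 1 of 105 cells with 3 to 4 markers in replicate 1. Cells are not replicates, and the replicate libraries are the only check on these shares.

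**Figure D3:**
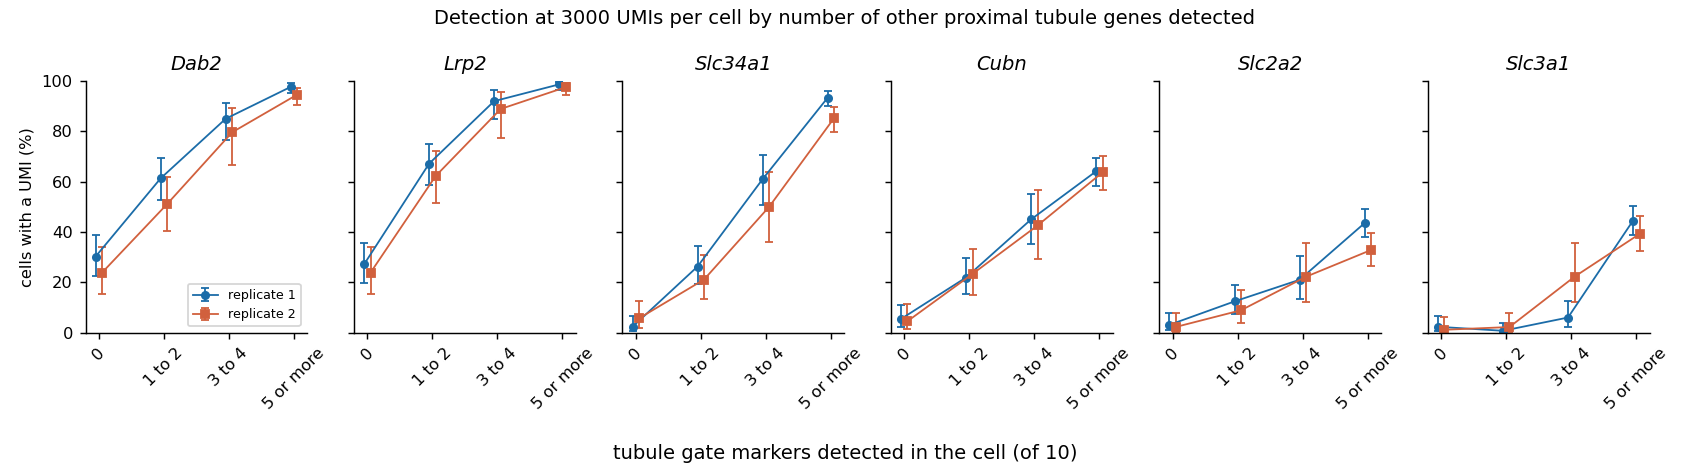
Share of proximal cells with at least 1 UMI of 6 genes, by the number of tubule gate markers (of 10) detected in the same cell, at 3000 UMIs per cell. Lines join the bins of each library, and bars are exact 95% binomial intervals, which cover counting error only. Lrp2 and Dab2 are above 50% with 1 to 2 markers, Slc34a1 reaches 50% or more with 3 to 4, and Slc3a1 stays at 2.33% or less until 3 to 4 markers are present.

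Slc5a1 and Slc5a2 were rarely counted in the same tubule cell. At 3000 UMIs per cell, Slc5a1 was counted in 17.1% of tubule cells in each library and Slc5a2 in 5.23% and 4.76%, and no cell of 287 and of 210 had both (exact 95% upper limits 1.28% and 1.74%). The product of the single shares was only 0.892% and 0.816%, so this depth could not show a separation. The cells with at least 20000 UMIs were therefore also thinned to 20000, a depth added after the shallower results had been seen. There Slc5a1 was counted in 52.8% and 53.5% of cells and Slc5a2 in 12.6% and 13.5%. Both were counted in 2 of 214 cells, 0.935% (exact 95% interval 0.113 to 3.34), and in 1 of 185 cells, 0.541% (0.0137 to 2.97). The product of the shares was 6.66% and 7.23%, above the upper limit of the interval in both libraries. These intervals cover counting error only, and cells are not replicates, so this is a description without a test. Slc3a1 and Slc7a9 were both counted in 73.4% and 69.7% of these cells, against products of 72.6% and 70.1%. Lrp2 was counted in every cell of this depth, so its pairing with Cubn could show nothing.

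The cells with 1 of the 2 glucose cotransporters also differed in other members. Cells with Slc5a2 and without Slc5a1, 25 and 24 cells, held on average 1.48 and 1.29 UMIs of Slc6a19 per 20000, whereas cells with Slc5a1 and without Slc5a2, 111 and 98 cells, held 0.360 and 0.194. Exact 95% Poisson intervals, for counting error only, were 1.04 to 2.04 and 0.878 to 1.83 in the former and 0.257 to 0.491 and 0.117 to 0.303 in the latter. Slc2a2 was also higher in the cells with Slc5a2, at 5.64 and 4.79 UMIs against 3.96 and 2.62. Slc7a9 stood at 2.48 and 2.33 against 1.64 and 1.48 UMIs. Dab2 stood at 44.0 and 39.4 against 38.9 and 26.3 UMIs. Slc3a1 went the other way, with 4.24 and 4.17 UMIs in cells with Slc5a2 and 5.92 and 5.04 in cells with Slc5a1. Its intervals met in replicate 2, 3.39 to 5.07 against 4.61 to 5.51. Cells with neither cotransporter, 76 and 62 cells, held still less Slc3a1, 3.51 and 2.63 UMIs. Lrp2 differed little, at 74.1 and 58.2 against 70.0 and 53.6 UMIs. Cubn was lower in the cells with Slc5a2 in replicate 1 only, at 7.56 (6.52 to 8.72) against 10.3 (9.71 to 10.9) UMIs. In replicate 2 it stood at 7.83 against 8.15 UMIs. Slc34a1 differed in replicate 2 only, at 39.3 against 22.1 UMIs, with 35.8 against 34.2 in replicate 1. Gatm, a gate marker that makes the creatine precursor, stood at 31.6 and 29.3 UMIs against 17.5 and 7.38. Miox, another gate marker examined, stood at 5.80 and 5.83 against 5.39 and 0.653 UMIs. The split was made after the counts of pairs had been seen. The cells were split by their own counts and come from 2 libraries, so these values are a description without a test.

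**Figure D4:**
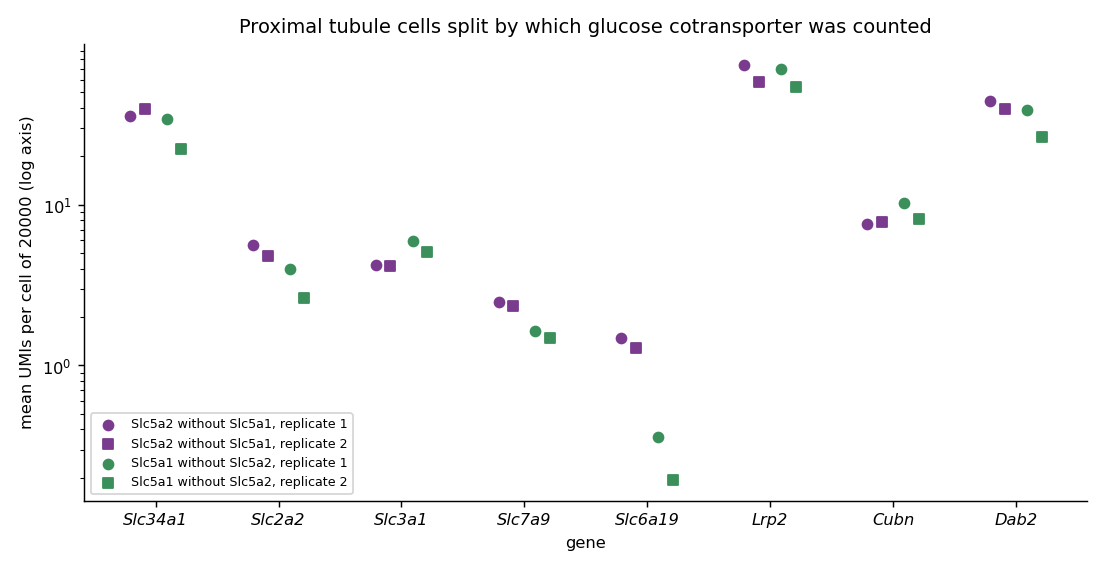
Mean UMIs per tubule cell thinned to 20000 UMIs, on a log axis, for the other 8 genes in cells with Slc5a2 and without Slc5a1 (purple) and in cells with Slc5a1 and without Slc5a2 (green). Circles are replicate 1 and squares are replicate 2. Slc6a19 shows the widest gap, 1.48 and 1.29 against 0.360 and 0.194 UMIs, and Slc3a1 lies higher in the green cells of both libraries.

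Outside the proximal classes most of the genes stood at small parts of their tubule level, and Dab2 and Slc6a19 reached the highest parts. In the 11 classes without the proximal and erythroid ones, the median level was at most 1.06% of the tubule level in either library for the 8 genes other than these. It was 0.763% and 2.62% for Slc6a19 and 2.68% and 2.73% for Dab2. Precursors were above the mean of the other classes by 2.39 (Slc3a1) to 6.15 (Slc2a2) on the log2 scale, and tubule cells by 5.11 (Dab2) to 8.79 (Slc2a2). Several class sums held 0 counts of the rarer genes, so these fitted differences depend on edgeR's prior count and are no bounds. Leaving out a library moved some of them by more than 1.5 times. For tubule cells without replicate 1 the log2 difference was 9.01 for Slc5a2, 8.81 for Slc7a9 and 7.88 for Slc3a1, in place of 6.79, 7.73 and 7.01, and without replicate 2 it was 7.17 for Slc6a19 in place of 5.90. For precursors without replicate 1 it was 5.56 for Slc5a2, 6.55 for Slc7a9 and 3.39 for Slc3a1, in place of 2.73, 5.35 and 2.39. Without replicate 2 it was 1.64 for Slc5a2, 3.69 for Slc6a19 and 6.04 for Slc5a1, in place of 2.73, 2.63 and 5.33. Leaving out the mixed erythroid class raised all 20 differences, by at most 0.46, and all stayed called.

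Slc5a2 in precursors, at 0.738 and 2.65 CPM, overlapped only with classes that had 0 CPM of it in the other library. These were immune cells at 1.28 CPM and the mixed erythroid class at 10.4 CPM in replicate 1, and mural cells at 0.847 CPM in replicate 2. This overlap therefore rests on 1 library per class. Slc6a19 in precursors overlapped with other classes in a firmer way. Slc6a19 was counted at 3.35 and 2.07 CPM in intercalated cells, from 19 and 10 counts, which spans the 2.79 and 2.56 CPM of precursors. In loop or distal cells it stood at 1.84 and 2.42 CPM, from 28 and 42 counts. These levels were 14.2% and 12.8%, and 7.80% and 15.0%, of the tubule level, against medians of at most 0.665% for the tubule gate markers in the same 2 classes. Slc5a1 was counted at 5.0 and 2.02 CPM in loop or distal cells, 5.79% and 2.56% of the tubule level. Slc7a9 was counted at 4.32 and 1.62 CPM in podocytes, from 31 and 7 counts. Lrp2 was counted at 51.5 and 33.1 CPM in intercalated cells, 1.58% and 1.25% of the tubule level, where the gate markers had medians of 0.292% and 0.481%. No differences between single classes of this kind were tested.

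Dab2 is known as an endocytic adaptor in macrophages as well as in the tubule. It stood at 1708 and 1257 CPM in immune cells, 85.9% and 88.1% of the tubule level of the same library, and the ranges of the 2 classes overlapped. Immune cells were above the mean of the other non-proximal classes by 5.08 on the log2 scale (SE 0.12, adjusted p = 2.3e-18, edgeR), in a comparison that called 21.1% of all genes higher. Of the other 9 members 0 were called in it, and 0 had an unadjusted p under 0.05. Among all genes 3894 were called higher and 3930 lower. Slc5a1, Slc2a2 and Slc6a19 had 0 counts in the immune sums of both libraries, where 3 counts correspond to 1.92 and 2.63 CPM. With 0 counts the SEs of their differences were too large for a call, so the lack of one shows no likeness to other classes. Precursors, at 568 and 343 CPM, came next, and intercalated cells followed at 224 and 229 CPM. Podocytes stood at 129 and 99.7 CPM and stroma at 81.8 and 71.7 CPM. Endothelial cells, at 74.5 and 58.6 CPM, overlapped with stroma, and mural cells lay lower, at 53.4 and 39.0 CPM. Loop or distal cells, at 6.57 and 6.75 CPM, were among the lowest, together with early nephron cells at 16.9 and 7.75 CPM. Stroma was above the mean of the other non-proximal classes by 0.41 on the log2 scale (SE 0.16, adjusted p = 0.042), where 27.6% of all genes were called higher. That call was lost in 10 of 12 alternatives with a test, with adjusted p between 0.058 and 0.42 in those 10. Mural cells at -0.42 (adjusted p = 0.12) and endothelial cells at 0.23 (adjusted p = 0.29) were not called, where 12.2% of all genes were called lower and 28.4% higher.

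**Figure D5:**
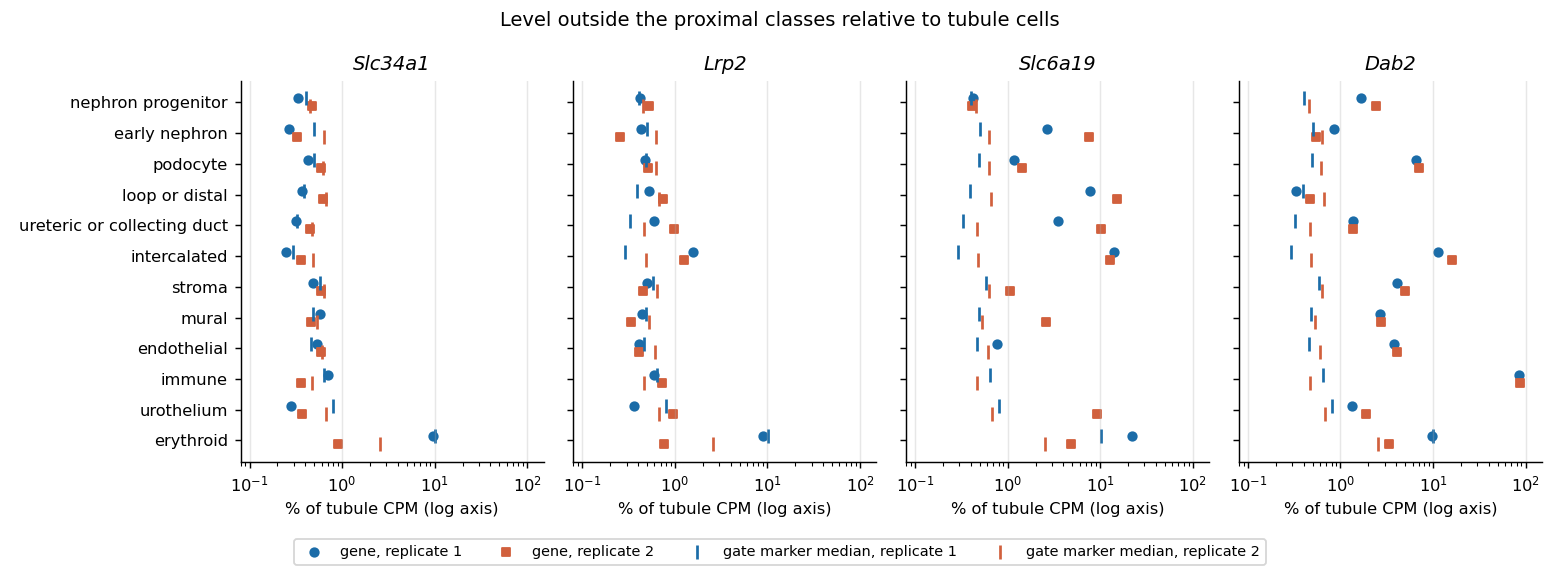
Level of 4 genes outside the proximal classes as a percentage of their CPM in tubule cells, on a log axis. Circles and squares are the gene in replicates 1 and 2, vertical ticks are the medians of the 10 tubule gate markers in the same class and library, and sums with 0 counts are not drawn. Slc34a1 lies at the ticks, Lrp2 is above them in intercalated cells, Slc6a19 is above them in several epithelial classes, and Dab2 reaches 85.9% and 88.1% in immune cells.

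The genes most like 4 of the members were found by the Pearson correlation of log2(CPM + 1) over the 28 class sums of 14 classes, which share libraries and depth, and are given as a description. For Slc34a1 they were Cldn2, Tmem174, Pdzk1, Aadac and Gm39078, with r from 0.979 to 0.982. Cldn2 makes a leaky tight junction and Pdzk1 is a scaffold of brush border carriers. For Slc5a1 they were Proc, Slc7a12, Slc22a13, 9130016M20Rik and Fga, with r from 0.943 to 0.968. For Lrp2 they were A1cf, Mab21l4, Acot4, Cldn2 and Gm39078, with r from 0.965 to 0.970. Dab2 had weaker matches, Cmah, Cfb, Osbpl8, Tfec and Ctbs, with r from 0.830 to 0.868. Each of these 5 was counted in immune cells, with mean levels from 30.1 CPM for Ctbs to 158 CPM for Osbpl8.

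Other genes of the same pathways were taken from lists of 63 genes. The lists were chosen with earlier results of these data known, so the counts here and below are no independent result. Of these genes, 62 were tested from precursor to tubule, 50 were higher in tubule cells, 3 were lower and 9 were not called, and Treh was not tested. Among all tested genes 24.3% were called higher and 21.9% lower. Their median log2 difference was 1.97, against -0.02 over all genes. Under scaling by library size alone 44 were higher and 4 lower, where 2528 of all genes were called higher and 6089 lower. All 10 listed carriers of amino acids and peptides were higher, with a median of 3.0, and 9 of them under library size alone. Slc6a20b had the largest change, from 8.29 and 6.29 CPM in precursors to 94.8 and 86.7 CPM in tubule cells (log2 difference 4.01), followed by Slc6a18, at 3.99, a relative of Slc6a19. Slc15a1 and Slc6a20a also passed, though Slc15a1 had at most 2.43 CPM in any of these sums.

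Of the 10 carriers of phosphate, sulphate, carboxylates and protons, 8 were higher, and 7 under library size alone, with a median log2 difference of 3.90 over the list. Slc13a3, a dicarboxylate carrier of the basolateral side, went from 0.656 and 0.688 CPM to 42.0 and 50.2 CPM, a log2 difference of 6.44. Slc9a3, the brush border sodium-proton exchanger, went from 2.71 and 3.84 CPM to 81.5 and 58.1 CPM, a difference of 4.79. The widely expressed phosphate carriers Slc20a1 and Slc20a2 were not called, at 0.12 and 0.27, and both turned negative under scaling by library size alone. Of the 6 other carriers of glucose and fructose 5 were higher, and 4 under library size alone, led by Slc5a10 at 4.86 and Slc5a11 at 4.74. Slc2a1, a widely expressed glucose carrier, was not called, at 0.50.

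The partners and scaffolds of these carriers were higher in 6 of 7 cases, with a median of 1.58. Pdzk1ip1, a small partner of Slc5a2, went from 100 and 98.8 CPM to 749 and 542 CPM, a log2 difference of 3.08. Pdzk1 differed by 2.58. Slc9a3r2, another regulator of the exchanger, was lower in tubule cells, at 20.2 and 22.6 CPM in precursors and 8.12 and 9.14 CPM in tubule cells, a log2 difference of -0.93 (adjusted p = 5.7e-05). Of the 8 tested brush border enzymes 7 were higher, with a median of 2.80. Dpep1, a dipeptidase, went from 0.738 and 0.787 CPM to 33.5 and 23.9 CPM, a difference of 5.61, and Mep1b, a meprin subunit, differed by 4.42.

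The endocytic machinery had smaller differences, with a median of 0.74, and 8 of 12 genes were higher. Only 5 were higher, and 2 lower, under scaling by library size alone. Amn, the membrane anchor of cubilin, went from 56.9 and 53.4 CPM to 221 and 231 CPM, a log2 difference of 2.41, and Cltc, the clathrin heavy chain, differed by 1.74. Lrp1, the relative of megalin found in many other cells, was lower in tubule cells. It went from 19.2 and 20.5 CPM in precursors to 1.79 and 2.92 CPM, a log2 difference of -2.70 (SE 0.29, adjusted p = 2.0e-07, edgeR), opposite to the 3.03 of Lrp2. Of the regulators 6 of 9 were higher, led by Kl, the FGF23 coreceptor, at 3.47, and Pth1r, the parathyroid hormone receptor, at 2.91. Fgfr1 was lower, at -0.80 (adjusted p = 0.0047).

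Start regions were compared because members that moved together from precursor to tubule moved by unequal amounts. RefSeq windows of 300 bases on GRCm38.p6 (mm10) were found for 9 of the 10 genes, 11 windows in all. The stretch from 150 bases before the start site through the first 30 bases of the transcript is given, on the strand of the gene, for Slc3a1 and Slc34a1, which were among the members lowest in precursors relative to tubule cells, and for Lrp2, which was above both in that share. They lie at chr17:85028197-85028376 on the plus strand, chr13:55399498-55399677 on the plus strand and chr2:69586000-69586179 on the minus strand. Capitals mark matches, on either strand, to 2 runs of letters. CAAAGTCCA is a core of HNF4 sites. TATAAA is the motif of many tissue-restricted core promoters. In Slc3a1 the TATAAA matches near the start overlap each other on opposite strands.
Slc3a1: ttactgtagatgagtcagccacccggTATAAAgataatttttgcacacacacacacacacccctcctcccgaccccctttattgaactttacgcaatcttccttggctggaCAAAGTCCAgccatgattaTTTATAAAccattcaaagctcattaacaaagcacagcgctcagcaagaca
Slc34a1: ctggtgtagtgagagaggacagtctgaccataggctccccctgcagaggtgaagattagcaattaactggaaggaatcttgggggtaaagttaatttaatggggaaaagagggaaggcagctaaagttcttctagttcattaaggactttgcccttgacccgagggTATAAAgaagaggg
Lrp2: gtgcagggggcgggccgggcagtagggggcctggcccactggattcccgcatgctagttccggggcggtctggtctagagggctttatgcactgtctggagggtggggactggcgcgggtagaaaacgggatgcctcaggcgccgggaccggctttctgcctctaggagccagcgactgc
The motifs were chosen after these windows had been seen. CAAAGTCCA was found in 0.475% of 32851 mouse windows of this length and in 1 of the 11 windows of these genes, that of Slc3a1. TATAAA was found in 13.6% of all windows and in 2 of the 11, those of Slc3a1 and Slc34a1. Counted from 0 at the first base of the transcript, its matches begin at -124, -20 and -18 in Slc3a1. In Slc34a1 the match begins at 16, inside the transcript and not where a core promoter motif of this kind would lie. The other 9 windows held neither run. The bases G and C made up 65.0% of the window of Lrp2, 46.3% of that of Slc3a1 and 46.7% of that of Slc34a1, with a median of 52.7% over all windows. This content was also below that median in Cubn, at 44.3%, in Slc2a2, at 48.0%, in both windows of Slc7a9, at 47.0% and 51.3%, and in 1 window of Dab2, at 37.7%. The other window of Dab2 stood at 59.3%, Slc6a19 at 57.3% and Slc5a1 at 60.3%. A relation of this content to the share in precursors was not tested. Some windows lie inside the whole gene given above. That of Slc6a19 is chr13:73692587-73692886, while the gene on the minus strand begins at 73704865. That of Slc34a1 begins at 55399398, while the gene begins at 55398187. A match is a run of letters, not a site shown to be bound.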

How the data were processed

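The deposited values are raw UMI counts per gene and barcode from 3' single-cell libraries. The authors made them with Cell Ranger, version 4 per the file headers and 6.0.1 with mm10 per the submitters' processing notes. Further steps are not given in the sources used here. All barcodes were present. Doublets were the highest Scrublet scores (scanpy 1.11.5), 0.8% per 1000 cells, 245 and 142 cells. Marker z-scores of log counts, limited at 10, were averaged per class for each cell. A cell took its best class with a score of at least 0.5 and a margin of at least 0.3. These limits were chosen after the counts had been seen, among 3 settings, with the members' levels in view. Within 0.1 of the limits lay 10 and 3 tubule cells and 36 and 17 precursors, and 33 and 18 ungated cells had their 2 best scores in these classes.

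Counts were summed over cells of each library and class: 28 sums of 14 classes, with 13 residual degrees of freedom. edgeR 4.0.16 (R 4.3.3, limma 3.58.1) fitted a mean for each class with the library as block, using TMM scaling and filterByExpr, after tests on simulated data. Alternatives included DESeq2 1.42.0 and subtraction of free RNA, whose share was estimated from haemoglobin genes (4.77% and 0.470% of tubule UMIs) with the profile of barcodes of 10 to 100 UMIs. The share was highest in immune cells (26.9% and 1.40%), mural cells (21.5% and 2.17%) and endothelial cells (13.0% and 1.03%) in replicate 1. The 10 genes and the pathway lists were chosen with earlier results of these data known. The genes named were the members, the 2 called genes of each list with the largest change in each direction, and the 5 most correlated genes of 4 members. Slc6a20a, Slc15a1, Slc20a1, Slc20a2, Slc2a1, Gatm and Miox were named after their values were seen. Some genes and a motif examined are not reported here. Coordinates are those of GRCm38.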

Additional observations from a re-analysis of the deposited data

How the results depend on the processing

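All 30 member differences of the 3 main comparisons kept their direction and their call in 370 of 370 tested alternatives, and each alternative called all 10 genes. These covered scaling, test, filter, the library block, cell limits, doublets, gate margin, free RNA and the classes fitted. Without the library block all 10 were called in each comparison. No paired analysis was possible because there is only 1 group, in which the library block already links the classes of each library. Results without replicate 1 or without replicate 2 are values without a test.

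The stroma difference of Dab2 lost its call at 0.37 with DESeq2 size factors, 0.37 with the DESeq2 Wald test, 0.40 with no library block, 0.43 at 5000 UMIs, 0.38 at 10000 UMIs, 0.31 at 50% mitochondrial UMIs, 0.33 with doublets kept, 0.36 with the gate margin doubled, 0.68 with free RNA subtracted and 0.42 with library size scaling. The cause was not tested. The mural difference was called only at 50% mitochondrial UMIs, at -0.52 (adjusted p = 0.049). Leaving out either library gave 5.03 to 5.11 for Dab2 in immune cells and 0.24 to 0.28 in endothelial cells. At 5000 UMIs per cell, Lrp2 was counted in 34.2% of cells with 0 markers and 99.05% with 5 or more. Mean shares of cells with both genes were 0.182% for Slc5a1 with Slc5a2, 20.4% for Slc3a1 with Slc7a9 and 83.2% for Lrp2 with Cubn at 5000 UMIs, and 0.738%, 71.5% and 99.5% at 20000, since deeper cells show more genes.

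Scaling by library size alone, fits without the erythroid class and thinning to 20000 UMIs were added after the data were seen. The 2 libraries of 1 genotype limit every test, and at 3000 UMIs the rarer carriers were counted in few cells.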
